A study of Triticum aestivum with 12 samples.

Results

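The combined effect of blue (B) light and putrescine (PUT) on DNA methylation in wheat leaves was followed at the loci of the comparison BP vs WC. A locus is a section of the genome covered by sequencing reads, and 1 set of 11509120 loci was counted in 12 libraries. The loci described here had a count above 10 in at least 2 of the 3 BP libraries or in at least 2 of the 3 WC libraries. They numbered 379150, which is 3.29% of all loci and 70.3% of the 539307 loci tested across the 4 groups. The same rule kept 322974 loci for BC vs WC and 363767 for WP vs WC. Exactly at the edge of the rule, 75852 of the loci had a deciding count of 11, and 97302 loci outside had 10.

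The plants were winter wheat (Triticum aestivum L.) of the variety Mv Béres in hydroponic culture. BP plants grew under B light, of which blue made up 82.14%, red 16.7%, green 1% and far-red 0.17%, and had 0.5 mM PUT in the solution for 7 days, starting 7 days after germination. BC plants had the same B light without PUT. WP plants had the same PUT under white (W) light, with green at 45.71%, blue at 32.32%, red at 20.71% and far-red at 1.25%, and WC plants had W light without PUT. All groups had a photon flux density of 250 µmol m-2 s-1, a 16/8-h light/dark period, 22/20 °C and 75% relative humidity. BP and WC therefore differ in both light and PUT, and the part of each cannot be told apart in this comparison alone. B light was a spectrum enriched in blue and still held red light, while W light also held blue. Leaf markers cannot be checked in reads of genomic DNA.

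Cytosine methylation (5mC) in plant genomes lies mostly on transposable elements and other repeats, where it is tied to silencing, and part of it lies in gene bodies. The methyl group comes from S-adenosylmethionine (SAM), which plants also use to build spermidine and spermine from PUT, and to make ethylene. In MeDIP-seq an antibody to 5mC pulls down methylated fragments before sequencing, so a higher count at a locus stands for more recovered methylated DNA and not for a percentage of methylated cytosines. The paper describes the 3 libraries of a group as independent biological repetitions. It also states that the methylation profile came from 1 repetition of the whole experiment, chosen as the most representative. Here 1 library is 1 value per group throughout.

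BP libraries covered more of the loci than WC libraries. A locus with at least 1 read was found 3211670, 4160699 and 4324516 times in the 3 BP libraries, against 1563154, 2683833 and 3062668 times in the 3 WC libraries. Every BP library was above every WC library, and WC library 1 stood far below the rest. The mean was 3898960 ± 600821 covered loci in BP and 2436550 ± 779741 in WC (SD, n = 3 each). BP thus had 1462410 more, for which an exact permutation test (two-sided) gave p = 0.1, the smallest p possible with 3 libraries against 3, and 0.25 after adjustment over 5 library-level comparisons. The total counts were 19641114 to 21355140 reads in BP and 15812048 to 18824815 reads in WC. With all libraries thinned to the smallest total of 15812048 reads, the difference was 1305730 loci. Over the loci that passed the filter for testing it was 72402 loci, with 448811 to 486385 covered in BP and 290559 to 450047 in WC.

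**Figure D1:**
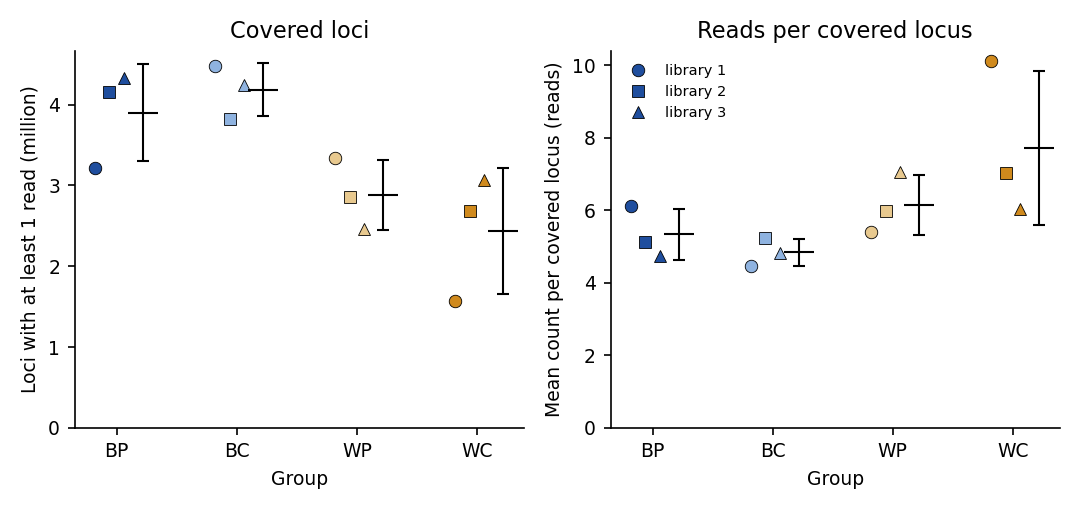
Loci with at least 1 read (left) and mean count per covered locus, in reads (right), for the libraries of BP, BC, WP and WC. Symbols are single libraries, and the bar beside them is the mean ± SD (n = 3). WC library 1 had the fewest covered loci of all 12 libraries, 1563154, and the highest mean count, 10.1 reads per covered locus.

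The reads were also spread differently over the covered loci. The mean count per covered locus was 6.12, 5.13 and 4.75 reads in the BP libraries, against 10.1, 7.01 and 6.04 reads in the WC libraries. The groups overlapped, since WC library 3 lay below BP library 1 (exact permutation test, p = 0.2, adjusted p = 0.25). Counting from 2 reads upward, the most frequent count of a locus was 3, 2 and 2 in BP, while it was 9, 5 and 3 in WC. The shape seen in WC library 1 was thus unlike that of the other 5 libraries, with few loci at low counts. The scaling factor of TMM, which evens out composition between libraries, was 1.49 for WC library 1 and 0.82 for BP library 3, the highest and the lowest of the 12.

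**Figure D2:**
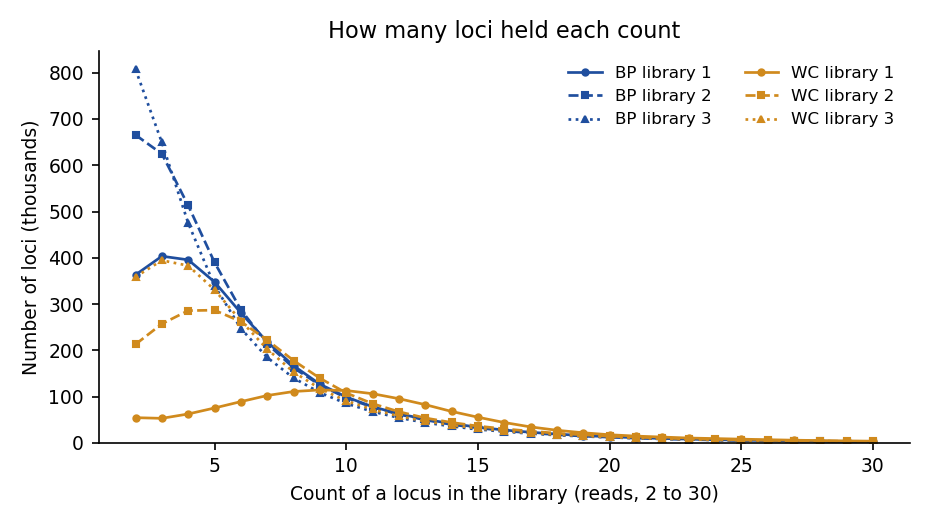
Number of loci that held each count from 2 to 30 reads, with 1 line per library for the 3 BP and 3 WC libraries. The line of WC library 1 has its peak at 9 reads, that of WC library 2 at 5, and those of the BP libraries at 2 or 3.

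Before any filter, 183730 loci had reads in all 3 BP libraries and in no WC library, against 14914 loci with reads in all 3 WC libraries and in no BP library. Reads in all 6 libraries were found at 226222 loci. The loci seen in BP alone were short (median 997 bp) and low, with a median of 14 reads over the 6 libraries, and 4.09% of them met the rule of the comparison. The loci seen in all 6 had a median length of 2604 bp and a median of 60 reads. BP-only loci were spread evenly over the subgenomes, with 1.63% of the loci of A, 1.54% of B and 1.62% of D. The difference in covered loci between the libraries goes in the same direction as these numbers, and its part in them was not tested.

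Group differences were tested at each locus with edgeR's quasi-likelihood test, and a locus was called at the thresholds of the study, an unadjusted p below 0.01 and a log2 fold change above 1.5 or below -1.5. Of the 379150 loci, 14058 were called higher in BP and 689 lower. Over all loci tested the background was 3.14% called higher and 0.143% called lower. At an adjusted p below 0.05 (Benjamini-Hochberg over the loci tested) 298 loci remained, 296 higher and 2 lower, beside a background of 0.059%. Of all calls, 95.3% were higher, but this share depended on the scaling. It was 82.0% with library size alone and 71.2% with library sizes over every locus. The median log2 fold change over all loci tested was 0.30 with TMM, -0.015 with library size alone, -0.16 with library sizes over every locus and 0.37 with RLE factors, and the changes named below are to be read relative to it.

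The way a locus met the rule fixed the direction in which it could be called. Through BP alone 150184 loci were kept, of which 13775 were called higher and 0 lower. Through WC alone 160278 loci were kept, with 0 called higher and 688 lower. The 68688 loci kept through both groups gave 283 calls higher and 1 lower, and at an adjusted p below 0.05 they gave 38 and 1. Among the loci called higher, all 3 WC libraries were at 0 at 8840, and among those called lower all 3 BP libraries were at 0 at 506. Every BP library lay above every WC library in scaled counts at 71.9% of the loci called higher, while 10.2% of all loci tested had this order. For the loci called lower the reverse order was found at 74.2%, beside 4.33% of all loci tested. Both sets were chosen on these same 6 libraries, so these shares describe the selection and are no support for it.

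BP library 3 carried many of the calls. At 64.5% of the loci called higher its scaled count was the highest of the 3 BP libraries, against 27.0% for BP library 2 and 8.45% for BP library 1. Without BP library 3, 5739 loci were called higher and 37 loci had an adjusted p below 0.05 (34 of them among the 298). Without BP library 2 these numbers were 7933 and 95, and without BP library 1 they were 15041 and 681. Leaving out WC libraries moved the loci with an adjusted p below 0.05 to 72 without WC library 1, 89 without WC library 2 and 245 without WC library 3. The 689 loci called lower were less dependent on 1 library in number, between 493 and 846, but between 134 and 422 of the original loci were among them each time. With BP library 3 and WC library 1 both left out, a setting chosen after seeing the data, 4615 loci were called higher, 853 lower and 35 had an adjusted p below 0.05.

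The loci that were called lay outside genes in most cases, as did the loci tested. Of the 379150 loci, 7941 (2.09%) overlapped an annotated protein-coding gene by at least 1 bp, which was also the case for 1.69% of the loci called higher and 2.32% of those called lower. A locus was found in 6901 genes. Of these, 242 genes had a locus called higher (3.51%), 17 had a locus called lower (0.246%) and 1 gene had both. The background over the 9405 genes with any tested locus was 3.09% and 0.202%. An adjusted p below 0.05 was reached in 8 genes.

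LOC123138634 on chromosome 6B had the smallest p of the genes with a locus called higher. Its locus, 18132046 to 18136039, lies wholly inside the gene and had 530, 275 and 141 reads in BP, against 34, 15 and 85 reads in WC. Each BP library was above each WC library, also in raw counts. BC had 124, 37 and 99 reads and WP had 119, 338 and 389, so that WP libraries 2 and 3 reached the level of BP. The log2 fold change of LOC123138634 in BP vs WC was 3.02 (SE 0.39, adjusted p = 4.59e-10 in edgeR's quasi-likelihood test), and 2.77 in WP vs WC and 1.44 in BC vs WC, which share the WC libraries. It stayed between 2.55 and 3.96 when any 1 library was left out, with an adjusted p of at most 0.000175, and with the 6 libraries of BP and WC alone the adjusted p was 0.0501. With all libraries the adjusted p was 0.0290 in the likelihood ratio test, which the study used, and 0.000858 in DESeq2.

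Several genes had reads in every BP library and none in WC, and BC and WP had reads at them as well. LOC123127673 on chromosome 6A encodes a serine/arginine-rich splicing factor, RSZ23-like, a kind of protein that takes part in the removal of introns. The locus, 407960815 to 407964551, overlaps the gene by 34 bp and had 14, 11 and 23 reads in BP and 0 in all WC libraries. Taking 3 counts over the WC libraries as a floor, BP was at least 20.8-fold higher (adjusted p = 0.0293, edgeR). BC had 9, 40 and 27 reads at this locus and WP had 9, 12 and 3, and the scaled mean of BC, 31.2, was above that of BP, 17.8. LOC123062693 on 3A (locus 624825995 to 624827571), an uncharacterized protein, had 12, 17 and 23 reads in BP and 0 in all WC libraries, at least 22.4-fold higher (adjusted p = 0.0440, edgeR). Its reads in BC were 24, 6 and 6, and in WP 12, 25 and 9. LOC123106216 on 5A (locus 2843895 to 2845810) had 7, 56 and 13 reads in BP and 0 in WC, with BP library 2 far above the others (at least 30.9-fold higher, adjusted p = 0.0350, edgeR). Here BC had 9, 0 and 8 reads and WP had 1, 11 and 25. None of these genes kept an adjusted p below 0.05 under every leave-one-out setting, though all were called at the thresholds of the study in each of them. Among the 10 genes with the smallest p of those called higher, all but LOC123138634 were kept through BP alone. That fixed the direction of their calls, so the calls and their persistence are no support for a change at these genes.

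The dehydrin Rab15-like gene LOC123107951 on 5A (locus 611941971 to 611944154), of a family of late embryogenesis proteins known from drought and cold, was of the same kind, with 28, 26 and 10 reads in BP and 0 in WC. BC had 20, 10 and 18 reads at the dehydrin locus and WP had 7, 3 and 24. LOC123121856 on 5D had 10, 27 and 25 reads in BP and LOC123054872 on 2D had 5, 44 and 12, both with 0 in WC. For LOC123121856, BC had 10, 8 and 13 reads and WP had 0, 0 and 18. For LOC123054872, BC had 21, 1 and 0 reads and WP had 6, 8 and 15. Their adjusted p values were 0.0615 for LOC123121856 and 0.0746 for LOC123054872, above 0.05 (edgeR).

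Other genes had few reads in WC. LOC123055997 on 2D (locus 590321285 to 590323499) had 23, 35 and 59 reads in BP, against 0, 5 and 0 reads in WC (log2 fold change 4.81, SE 1.14, adjusted p = 0.0440, edgeR), and each BP library was above each WC library. LOC123150072 on 7A (locus 178821107 to 178822355) is named benzaldehyde dehydrogenase, mitochondrial-like, an enzyme that oxidizes an aromatic aldehyde to its acid. It had 29, 35 and 47 reads in BP and 0, 0 and 7 in WC (log2 fold change 4.22, SE 1.02, adjusted p = 0.0533, edgeR). WP library 3 had 70 reads at this locus, more than any BP library. LOC123182703 on 1A (locus 302457412 to 302459066) had 15, 7 and 105 reads in BP and 9, 0 and 1 in WC, so the groups overlapped. Its log2 fold change was 4.16 (SE 0.96, adjusted p = 0.0371, edgeR), but 1.88 without BP library 3, where it was no longer called (adjusted p up to 0.998).

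Among the 10 genes with the smallest p of those called lower, only LOC123140149 on chromosome 6B reached an adjusted p below 0.05. Its locus, 730346275 to 730346651, lies inside the gene, 0.842 Mb from the chromosome end. It had 36, 2 and 12 reads in BP, against 220, 118 and 136 reads in WC, without overlap. The log2 fold change was -2.97 (SE 0.60, adjusted p = 0.00623, edgeR), and the scaled mean of BP was 7.92-fold lower. BC had 12, 22 and 35 reads, as low as BP, whereas WP had 247, 28 and 10, spanning the range of both groups. The adjusted p was at most 0.207 when 1 library was left out, and the locus was called each time. DESeq2 gave an adjusted p of 0.131.

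The other genes of these 10 had an adjusted p of at least 0.173, and their loci were all kept through WC alone, which fixed the direction of their calls. LOC123090630 on 4B (locus 17137693 to 17137733), named serine/arginine repetitive matrix protein 1-like, had a locus of 41 bp with 10, 3 and 5 reads in BP and 43, 31 and 60 in WC (log2 fold change -2.60, SE 0.93, adjusted p = 0.264, edgeR). LOC123077824 on 3D (locus 125081057 to 125085589) had 5, 3 and 3 reads in BP and 23, 29 and 38 in WC (log2 fold change -2.72, SE 0.99, adjusted p = 0.277, edgeR). LOC123082731 on 4A had 0 in all BP libraries and 11, 29 and 5 reads in WC, at least 12.2-fold lower with the same floor for BP. LOC123072642 on 3B had 0 in BP and 16, 23 and 5 in WC, at least 11.9-fold lower. LOC123127413 and LOC123127414 on 6A overlap each other at 1 locus, which had 0, 1 and 0 reads in BP and 12, 6 and 24 in WC, and the reads cannot be assigned to either gene.

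The remaining genes of this group were carried by few reads. LOC123148525 on 7A, an uncharacterized protein, had 0, 0 and 1 reads in BP and 25, 8 and 18 in WC. LOC123143415 on 6D, which its locus overlaps by only 6 bp, had 0, 1 and 0 in BP and 23, 2 and 21 in WC. LOC123066372 on 3B had 0, 2 and 2 in BP and 0, 44 and 30 in WC, with WC library 1 at 0, so that the groups touched. Apart from LOC123140149 and LOC123082731, each gene of this group lost its call in 2 to 5 of the 6 leave-one-out settings. The exact permutation test over the 6 libraries gave p = 0.1, its smallest value, for all the genes named above with the exception of LOC123182703 (p = 0.2) and LOC123066372 (p = 0.4). The genes were chosen for a small p on these same 6 libraries, so this p describes the choice and is no support for it.

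**Figure D3:**
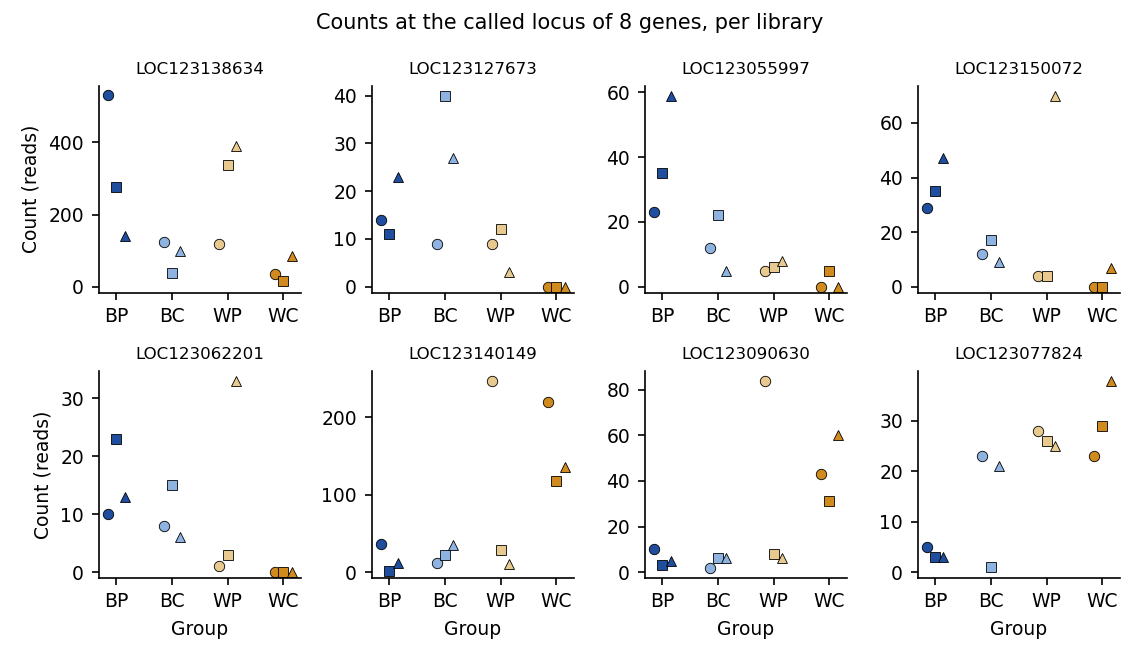
Counts, in reads, at the called locus of 8 genes in every library of BP, BC, WP and WC (circle, library 1, square, library 2, triangle, library 3). The first 5 genes were called higher in BP vs WC, and LOC123140149, LOC123090630 and LOC123077824 were called lower. LOC123140149 had 36, 2 and 12 reads in BP and 220, 118 and 136 in WC.

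Genes were also grouped by their product names, which are known here for 249 of the 6901 genes because they come from gene tables that the study drew from these libraries, so these counts are not independent evidence. Of these 249 genes 61 were called, a far larger share than over all 6901 genes, and the counts of the lists are to be read against it. In the list of DNA methylation and the SAM cycle, 2 genes had a locus, and 1 was called higher. This was LOC123062201 on 3A (locus 556012253 to 556014806), a histone-lysine N-methyltransferase SUVR3-like, of a family of SET-domain proteins that act on histones in chromatin silencing. It had 10, 23 and 13 reads in BP and 0 in all WC libraries, at least 19.1-fold higher (adjusted p = 0.0953, edgeR), at a locus that overlaps the gene by 60 bp. BC had 8, 15 and 6 reads and WP had 1, 3 and 33 at this locus, which was kept through BP alone. LOC123103996, a DRM2-like DNA (cytosine-5)-methyltransferase of the kind that sets new methylation in plants, had a log2 fold change of 2.14 (SE 1.36, adjusted p = 0.748) and was not called.

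In the list of ethylene synthesis from SAM, 2 genes of 1-aminocyclopropane-1-carboxylate (ACC) oxidase, the last enzyme of the pathway, had a locus. LOC123121703 on 5D (locus 353201652 to 353203372), ACC oxidase 1-like, was called higher, with 30, 45 and 25 reads in BP, against 0, 9 and 9 reads in WC (log2 fold change 2.70, SE 0.96, adjusted p = 0.263, edgeR), and it lost the call in 2 of the 6 leave-one-out settings. Its locus was kept through BP alone, which fixed the direction of the call. LOC123128527 had a log2 fold change of -6.47 (SE 2.63, adjusted p = 0.324) and was not called. Of the list of defence and stress 8 genes had a locus, 1 of them called higher, the dehydrin LOC123107951. Of the photosynthesis list 4 genes had a locus and 0 were called, the smallest unadjusted p being 0.140 for the chlorophyll a-b binding protein LOC123068673. This list also holds 2 copies named photosystem II D2 protein-like, a protein that the plastid genome encodes, and reads of plastid DNA cannot be told apart from theirs. Of the 2 genes of polyamine metabolism and the 3 of light perception that carry a product name here, 0 had a locus that met the rule, and genes without a product name were not searched. The median log2 fold change was 0.65 over the loci of the 4 photosynthesis genes and 0.83 over those of the 8 genes of defence and stress. In the latter LOC123088626 entered with more than 1 locus. Beside these stand 0.19 over the loci of the comparison that lie in genes and 0.26 over all tested loci in genes. The lists with 2 genes are given by their single values above.

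The 5 loci with the smallest p of those called higher were of another kind, with very high counts in BP library 3, and none overlapped a gene. At 4B, 592421107 to 592422674, BP had 6152, 5434 and 26466 reads, against 6318, 5868 and 4801 reads in WC. BP libraries 1 and 2 lay within the range of WC in raw counts. The log2 fold change was 1.63 with all libraries, BP lying above WC after scaling, and 0.21 without BP library 3. At 5B, 144109266 to 144110471, BP had 452, 519 and 7717 reads and WC had 587, 659 and 619, so 2 of the BP libraries were below all of WC. Here the log2 fold change of 2.75 became -0.18 without BP library 3. The adjusted p of these 2 loci was 5.75e-295 and 2.87e-110 in edgeR's quasi-likelihood test, which takes the spread from the trend and not from the locus, and DESeq2 gave no adjusted p for either. The exact permutation test over the 6 libraries gave p = 0.1 at the 4B locus and p = 0.9 at the 5B locus.

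At 3 further loci the libraries kept nearly the same order. The locus at the start of 4A, 1 to 96, had 83, 978 and 3077 reads in BP, against 53, 184 and 86 in WC. The locus 5A, 346441270 to 346442186, had 85, 702 and 2498 in BP and 33, 143 and 78 in WC, and 4A, 342355916 to 342356727, had 42, 450 and 1425 in BP and 24, 97 and 40 in WC. In all 3, BP libraries 2 and 3 were high and BP library 1 lay within the range of WC. BC library 2 was high as well, with 730 reads at the first of them, against 79 and 165 in BC libraries 1 and 3. Over the 12 libraries the count of the 5A locus was between 0.623 and 1.52 times that of the first 4A locus, while that count itself varied 58.1-fold. Whether these loci share reads through near-identical sequence was not tested. Their log2 fold changes were 4.16, 4.17 and 4.05 with all libraries, and 2.50, 2.41 and 2.39 without BP library 3, where all 3 were still called. Over the 6 libraries an exact permutation test gave p = 0.3 at the first 4A locus and p = 0.2 at the others.

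Loci with a mean above 100 reads were rare, 167 of the 379150. An adjusted p below 0.05 was found at 29 of them, all higher in BP, and BP library 3 had the highest scaled count of all 12 libraries at 23 of the 29. Without BP library 3, 13 of the 29 still had an adjusted p below 0.05.

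The loci called lower with the smallest p had no such library. Besides the locus of LOC123140149, 5B, 652528097 to 652528120, a locus of 24 bp, had 0, 2 and 3 reads in BP and 37, 35 and 83 in WC (log2 fold change -4.52, SE 1.03, adjusted p = 0.0326, edgeR). At 7D, 308337103 to 308339437, BP had 0 in all libraries and WC had 40, 14 and 16 reads (at least 18.6-fold lower, adjusted p = 0.0875, edgeR). At 3A, 339571732 to 339572665, BP had 12, 3 and 9 reads and WC had 108, 40 and 73, and at 7A, 79649026 to 79651636, BP had 0 in all libraries and WC had 21, 29 and 6. The adjusted p values of the 3A and 7A loci were 0.104 and 0.118 (edgeR). Apart from the locus of LOC123140149, all of these loci were kept through WC alone, which fixed the direction of their calls. In all of them the BP libraries lay below every WC library, but they were chosen on these same libraries, so this order is no support.

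By chromosome, the summed counts of all loci differed little. None of the 21 chromosomes passed an adjusted p of 0.05 in the edgeR test (smallest 0.119), while 5 of them, all of subgenome A, had an unadjusted p below 0.05. All 7 chromosomes of subgenome A had a higher share in BP, with log2 fold changes from 0.036 to 0.070. In subgenome B 1 of 7 chromosomes and in subgenome D 0 of 7 were above 0, and the lowest value was -0.024, on 6B (SE 0.013). The signs of the A chromosomes stayed the same under each alternative tried, but the values were between 0.016 and 0.047 without BP library 3. The A subgenome held 34.5%, 35.2% and 36.1% of the nuclear count in the BP libraries, against 34.6%, 34.2% and 34.1% in the WC libraries. The groups overlapped, since WC library 1 was above BP library 1 (exact permutation test, p = 0.2, adjusted p = 0.25). Without BP library 1, 8 chromosomes had an adjusted p below 0.05.

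**Figure D4:**
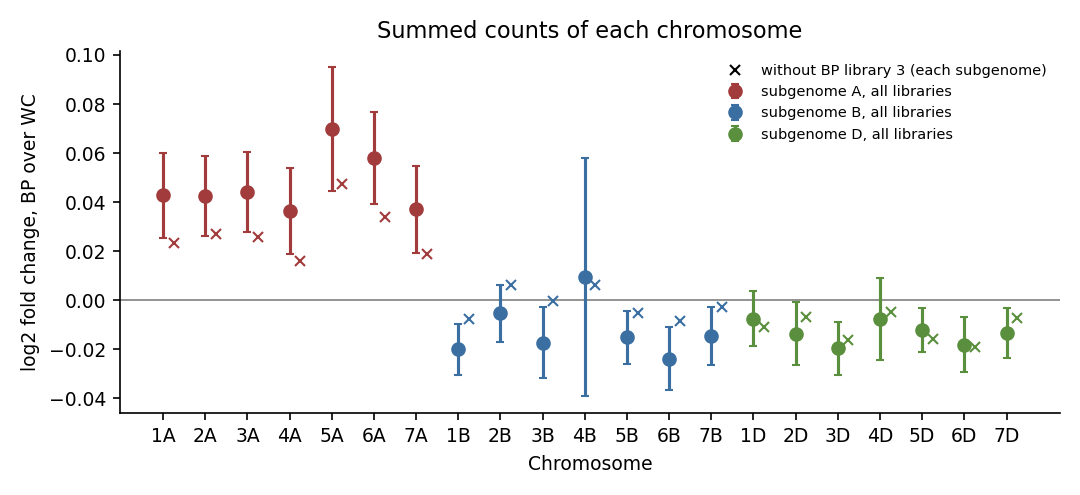
Log2 fold change of BP over WC for the summed counts of each chromosome, ordered by subgenome (points with SE, all libraries) and without BP library 3 (crosses). The 7 chromosomes of subgenome A lie above 0, from 0.036 to 0.070, and those of B and D lie near or below 0.

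Of the loci of the comparison, 4.22% were called higher in subgenome A, 3.67% in B and 3.22% in D, and the highest share was that of 2A, 4.57%. These shares cannot be told apart from the rule, since nearly all calls higher came from loci kept through BP alone, which made up 41.9% to 43.3% of the loci on A chromosomes, 38.5% to 39.5% on B and 36.9% to 37.7% on D, and the difference between subgenomes was not tested. Calls lower made up 0.164% in A, 0.201% in B and 0.180% in D. Of the 36 mitochondrial loci 1 met the rule.

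Chromosome 5A had the largest log2 fold change, 0.070 (SE 0.025, adjusted p = 0.119, edgeR), and WC library 2 stood apart on it. Without WC library 2 it was no longer the largest. The share of 5A was 4.98%, 5.06% and 5.23% of the nuclear count in BP and 5.00%, 4.68% and 4.95% in WC. WC library 2 was low over the first 238 Mb of 5A alone, a border placed after seeing the data. There it had 0.848 of the share of the median library, against 0.987 and 0.995 in WC libraries 1 and 3 and 1.00, 1.01 and 1.06 in the BP libraries. Over the remaining 476 windows it had 0.980. Without WC library 2 the log2 fold change of 5A was 0.0399, below those of 6A (0.0618), 3A (0.0471), 1A (0.0436) and 2A (0.0402), and the median over the windows of the first segment was 0.050 in place of 0.13. BP library 3 ran high in the middle of 5A, up to 1.19 times the median library at 31.25% of the length.

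**Figure D5:**
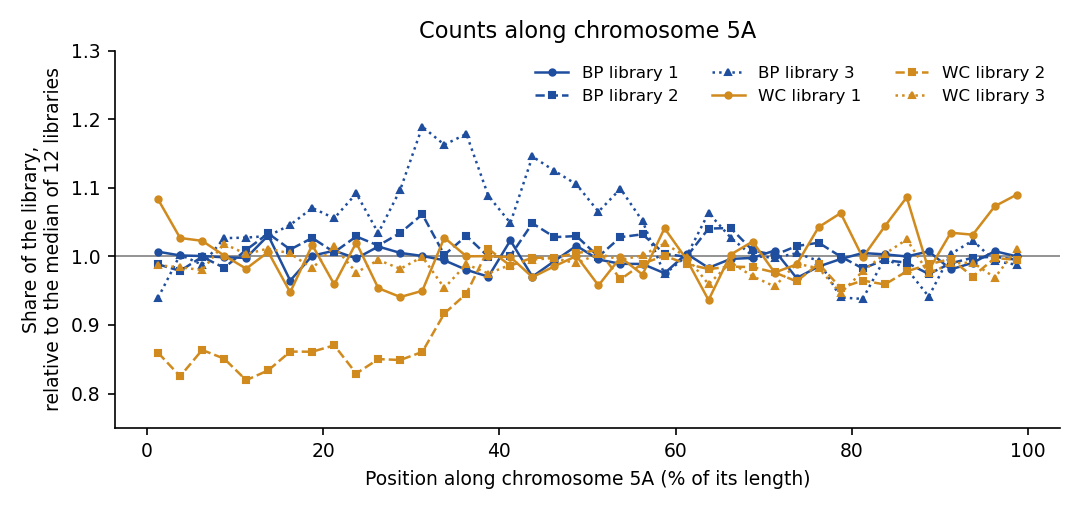
Share of the library's count along chromosome 5A, in 40 parts of equal length, divided by the median share of the 12 libraries in that part, for the 3 BP and 3 WC libraries. WC library 2 runs low from the left end over the first 238 Mb, at 0.848 over that segment, and joins the other libraries beyond it, while BP library 3 reaches 1.19 at 31.25% of the length.

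Along the chromosomes, counts were summed in windows of 1 Mb, of which 13983 of 14233 had enough reads. Most of the windows that were not tested, 201 of 250, lay on 1B. The median absolute log2 fold change of a window was 0.078, and 95% of the windows were below 0.25. An adjusted p below 0.05 was found for 1 window higher in BP (0.00715% of those tested) and for 0 lower. At an unadjusted p below 0.01 there were 281 windows higher and 172 lower, 3.24% of the windows tested, and at p below 0.05 there were 1604 in either direction (11.5%). DESeq2 found 21 windows higher and 8 lower. Windows of subgenome A had a log2 fold change above 0 in 62.7% of cases, against 42.1% in B and 40.8% in D. Without BP library 3 these shares were 57.3%, 46.7% and 41.6%.

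The window called higher was 5A, 256000001 to 257000000. Its loci held 1607, 1753 and 1714 reads in BP, against 946, 961 and 1139 reads in WC, so every BP library was above every WC library. The log2 fold change was 0.53 (SE 0.082, adjusted p = 0.00611, edgeR), and BC and WP lay between both, with 0.33 in BC vs WC and 0.24 in WP vs WC. It lies past the segment in which WC library 2 was low, in the stretch in which BP library 3 ran high, and without BP library 3 the log2 fold change was 0.51 (adjusted p = 0.0367, edgeR). No single locus made the difference, since the tallest held 1.80% of the reads of the window, and 6 of its 33 loci that met the rule were called higher. In the 5 windows on either side the log2 fold changes ranged from -0.026 to 0.40, with a median of 0.17 and no adjusted p below 0.05. Without BP library 2 the adjusted p was 0.0705, without WC library 2 it was 0.0792, and with the 6 libraries of BP and WC alone it was 0.0917.

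Further windows were close to the threshold. These were 2A, 370000001 to 371000000 (log2 fold change 0.41, SE 0.076, adjusted p = 0.0524, edgeR), 1A, 155000001 to 156000000 (0.46, SE 0.091), 5A, 226000001 to 227000000 (0.46, SE 0.091) and 7A, 297000001 to 298000000 (0.43, SE 0.086), the last 3 with an adjusted p of 0.0598. In each of them every BP library was above every WC library, but the windows were chosen on these same libraries. Without BP library 3 their adjusted p values were 0.118, 0.385, 0.424 and 0.385, in the order named (edgeR). The 5A window lies in the segment in which WC library 2 was low, and without that library its adjusted p was 0.219 (edgeR). The 5 windows higher in BP with the smallest p were thus all on A chromosomes.

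The windows that were lowest in BP did not reach the threshold. The window 6B, 730000001 to 731000000, near the chromosome end, had 1244, 1172 and 1145 reads in BP and 1251, 1482 and 1398 in WC (log2 fold change -0.42, SE 0.085, adjusted p = 0.0598, edgeR). It holds the locus of LOC123140149, and with loci of at most 100 reads alone the value was -0.26. On 3D, 14000001 to 15000000 had 1299, 1470 and 1228 reads in BP and 1444, 1589 and 1531 in WC (-0.40, SE 0.085, adjusted p = 0.0695, edgeR). The windows 5D, 528000001 to 529000000, 2B, 188000001 to 189000000, and 5B, 191000001 to 192000000, had log2 fold changes of -0.31, -0.30 and -0.29, with adjusted p values of 0.159, 0.190 and 0.190 (edgeR).

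The share of calls differed with locus length, without a steady order over the 7 classes. Under 250 bp only 36 loci met the rule, with 14 called higher (38.9%) and 6 lower (16.7%), and from 250 to under 500 bp 2.70% of 630 were called higher. Of the loci from 500 to under 1000 bp that met the rule 7.25% were called higher, of those under 2000 bp 5.43%, under 3000 bp 3.31%, under 5000 bp 2.15% and of 5000 bp or more 1.66%. Here a longer class starts where the one before it ends, and a locus is itself a merged covered section. These shares cannot be told apart from the rule, since over all lengths nearly all calls higher came from loci kept through BP alone. Such loci made up 27.8%, 19.8%, 42.6%, 45.5%, 43.6%, 33.7% and 11.3% of the 7 classes, from short to long. The share called higher did not follow the order of these values, and under 250 bp it was above the share kept through BP alone. The part of the rule in each class was not tested. Called loci had a median length of 1944 bp when higher and 1753 bp when lower, beside 2433 bp over the loci of the comparison. In the summed counts of the 7 length classes edgeR gave no adjusted p below 0.681, and 0 classes had an unadjusted p below 0.05. Loci from 500 to under 1000 bp had the largest log2 fold change, 0.078 (SE 0.049), though -0.15 over the loci of the comparison alone, and loci of 5000 bp or more the lowest, -0.29 (SE 0.28). The longest class took 2.95%, 2.32% and 1.71% of the count in BP and 2.39%, 2.99% and 3.18% in WC, which overlapped. BP library 3 was the lowest of them, and WC library 1 was the lowest of WC.

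Distance to the nearer chromosome end gave a similar picture. Of the 6 classes edgeR gave none an adjusted p below 0.237, and 0 classes had an unadjusted p below 0.05. The class of 1 to 10 Mb from an end had a log2 fold change of -0.12 (SE 0.075), with 1.43%, 1.39% and 1.25% of the count in BP and 1.66%, 1.37% and 1.39% in WC. Only WC library 1 lay above all BP libraries in this class, and without it the log2 fold change was -0.024. The class under 1 Mb had the highest value, 0.026 (SE 0.033), and it turned to -0.0045 without BP library 3. Of the 566 loci under 1 Mb from an end that met the rule 8.30% were called higher, against 3.28% to 3.84% in the other classes. These calls depend on the rule, through which BP alone kept 36.9% of the 566 loci and 34.7% to 40.5% in the other classes. The summed counts, which do not depend on the rule, gave the 0.026 above for this class. The difference between the shares was not tested.

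BP was also set against the groups that differ from it in 1 factor. At the 379150 loci, 1239 were called in either direction in BP vs BC, where PUT differs under B light (background 0.333%), and 7035 in BP vs WP, where light differs with PUT in both (background 1.54%). At all loci tested, 10 had an adjusted p below 0.05 in BP vs BC (0.00185%) and 41 in BP vs WP (0.0076%). At the loci called higher in BP vs WC, the median log2 fold change was 6.49 in BP vs WC, 4.92 in BC vs WC and 3.98 in WP vs WC, all of which use the WC libraries that gave the low values. The median in BP vs BC was 0.97 and in BP vs WP 1.76, which use the BP libraries that gave the high values. The interaction, in which the effect of PUT under B light is set against that under W light, had an adjusted p below 0.05 at 2 loci (0.000371%) and at 0 windows (edgeR). Of the 1 Mb windows, 235 (1.68%) had an adjusted p below 0.05 in BP vs BC and 0 in BP vs WP.

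BC and WP have no library in common with BP vs WC. At the loci called higher in BP vs WC, the mean of BC was above that of WP at 74.4% of loci. This was the case at 54.0% of the 379150 loci and at 50.9% of all loci tested. The median log2 fold change of BC vs WP was 0.78 at the loci called higher, beside 0.12 over the 379150 loci and 0.031 over all loci tested. At the loci called lower in BP vs WC the mean of BC was above that of WP at 48.8%, with a median of -0.016. BC libraries also covered more loci than WP libraries, 3825307 to 4482038 against 2459521 to 3332499, and the part of this in the shares was not tested.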

How the data were processed

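MeDIP-seq libraries of wheat leaves, 3 for each of the groups BP, BC, WP and WC, were used. The authors trimmed the reads (Trim Galore, Cutadapt), aligned them with BWA to IWGSC CS RefSeq v2.1 and defined and counted the covered sections with bedtools. The deposited values are raw counts per locus, without normalization. Removal of duplicate reads is not given in the sources used here, and input libraries were not used here. Columns without a sample numbered 0.

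Tested loci were those in which 2 or more libraries of a group exceeded 10 counts. They were fitted in edgeR 4.0.16 (R 4.3.3) with the quasi-likelihood test on the 12 libraries, 1 coefficient per group and TMM factors. With a common dispersion of 0.951 and infinite prior degrees of freedom, p followed the trend and not the spread at the locus. The study used the likelihood ratio test, run here as an alternative beside DESeq2 1.42.0. Summed counts of 1 Mb windows (mean count of at least 50) and of the 21 chromosomes were tested in the same way, and length and distance classes without TMM factors. Library-level values were compared with exact permutation tests (Python 3.11.15, scipy 1.17.1). The standard error is the log2 fold change divided by the root of the F statistic. For a group at 0, 3 counts over its libraries served as the floor, which covers counting error only because reads lack molecular identifiers.

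On simulated data for BP vs WC with 30000 loci, 200 of them changed, the test called 8% at a log2 fold change of 2 and 87% at 5. Of the unchanged loci 0.701% and 0.715% were called in either direction. In the data 3.14% of all loci tested were called higher and 0.143% lower. The simulated loci all had the common dispersion, and the simulated libraries differed in scaling alone, so that none had the shape of WC library 1. On 13983 windows 28% at 0.3 and 94% at 0.5 were called.

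Named were the 10 genes with the smallest p in each direction, the 5 loci and 5 windows likewise, called genes of the lists by product name, and the chromosomes and classes with the largest and smallest values. Gene positions are those of RefSeq on the same build. Members, lists and rules were chosen with earlier results of these data known. Sequences, exons and strands were not used here.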

Additional observations from a re-analysis of the deposited data

Results flagged for a closer look

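The interaction term, which sets PUT under B light against PUT under W light, had an adjusted p below 0.05 at 2 loci (edgeR's quasi-likelihood test). At 4B, 592421107 to 592422674, the interaction was 0.43 on the log2 scale (SE 0.061, adjusted p = 8.44e-07). The value for PUT was 0.18 under B light (BP vs BC, adjusted p = 0.815) and -0.25 under W light (WP vs WC, adjusted p = 0.000522). BP had 6152, 5434 and 26466 reads there, BC 8176, 15541 and 8557, WP 5055, 3956 and 3825, and WC 6318, 5868 and 4801. At 4A, 1 to 96, the interaction was 1.62 (SE 0.30, adjusted p = 0.0114), made of 2.05 under B light and 0.42 under W light. BP had 83, 978 and 3077 reads, BC 79, 730 and 165, WP 86, 184 and 125, and WC 53, 184 and 86. In both, BP library 3 was the highest of the 12 libraries, and the spread between the libraries of 1 locus did not enter its p. At 4B, BP libraries 1 and 2 lay below every BC library in raw counts. The interaction was not fitted without BP library 3, so a different effect of PUT is not shown at either locus. The 2 loci are 0.000371% of those tested. With 3 libraries per group no group was large enough to look for single outlying libraries by a formal rule.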

How the results depend on the processing

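Loci called higher, 14058 of the members, numbered 24855 with DESeq2, 8938 with library size alone, 6355 with library sizes over every locus, 29597 with a count above 5, 2170 with a count above 20, 40669 with no filter, 9280 with the replicate block, 4615 without BP library 3 and WC library 1, and 5739 to 17231 with 1 library left out. Loci called lower, 689, numbered 3691 with the likelihood ratio test, 2300 with DESeq2, 1963 with library size alone, 2565 with library sizes over every locus, 1145 with a count above 5, 100 with a count above 20, 1308 with no filter, 314 with the replicate block and 493 to 846 with 1 library left out. Loci with an adjusted p below 0.05, 298, numbered 4508 with the likelihood ratio test, 10586 with DESeq2, 58 with library size alone, 1091 with RLE factors, 30 with library sizes over every locus, 67 with a count above 5, 0 with a count above 20, 79 with 2 of the 12 libraries, 39 with no filter, 14 with the 6 libraries alone, 70 with the replicate block, 35 without BP library 3 and WC library 1 (a setting chosen after seeing the data), and 37 to 681 with 1 library left out. The other filters also test other numbers of loci. Windows higher numbered 90 with the likelihood ratio test, 21 with DESeq2, 0 with the 6 libraries alone and with 5 Mb windows, 6 with the replicate block, 2 with loci of at most 100 reads, 4 without BP library 3 and WC library 1, and 0 to 140 with 1 library left out, the highest without BP library 1. Windows lower numbered 36, 8 and 2 with the likelihood ratio test, DESeq2 and the replicate block, and 0 to 64 with 1 library left out. Chromosomes with an adjusted p below 0.05 numbered 2 with the likelihood ratio test, 5 with the member loci alone and 0 to 8 with 1 library left out, distance classes 1 and 2 under the first 2 of these, and length classes 0 under each alternative run. The length and distance classes were fitted with library size alone, so that alternative was not run for them. The difference in covered loci was 72402 over the tested loci and 1025710 to 1806060 with 1 library left out. Genes called higher, 242, numbered 822 with 3 kb on both sides and 128 to 385 with 1 library left out. Genes called lower, 17, numbered 45 with 3 kb on both sides, 90 with the likelihood ratio test, 47 with library size alone, 6 with the replicate block and 11 to 20 with 1 library left out. Signs turned for loci from 500 to under 1000 bp (-0.15 with the member loci alone), for the class under 1 Mb from an end (-0.042 with loci of at most 100 reads, and -0.0045 to 0.058 with 1 library left out, the lowest without BP library 3), for 1 to 10 Mb (0.031 without BP library 3 and WC library 1, and -0.16 to -0.024 with 1 library left out) and for the 5B locus 144109266 to 144110471 (-0.27 without BP library 3 and WC library 1, and -0.18 to 3.28 with 1 library left out, the lowest without BP library 3). Of the named loci and genes, 298 of 352 repeats under alternatives kept direction and call, 52 kept the direction alone and 2 turned. The causes were not tested.

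The replicate numbers of the titles did not pair the libraries. The deviations of same-numbered BP and WC libraries from their group means over the windows had correlations of 0.034, -0.092 and 0.0091, and not every library correlated best with its own number.

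Counts per locus were low, with a median mean count of 8.58 reads over the members. In simulated data with the common dispersion of these libraries, 8% of the loci changed by 2 on the log2 scale were called, so that loci not called are not shown to be unchanged. Of the unchanged loci in that simulation 0.701% were called. Depth and spread were not varied separately.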
